A study of Mus musculus with 4 samples.

Results

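The genes described are the retinoic acid receptors and the enzymes that make and remove their ligand, 10 genes of the 22367 protein-coding genes in the annotation (GENCODE vM1, mm9). They were chosen by name: the receptors Rara, Rarb, Rarg, Rxra, Rxrb and Rxrg, the synthesis genes Aldh1a2 and Aldh1a3, and the degradation genes Cyp26a1 and Cyp26b1. Every SOX3 peak that overlapped the body of one of these genes or the 50 kb to either side of it was taken, which gave 81 peaks. Peaks that overlapped each other by at least 1 bp, in the same or in different replicates, were merged, and this left 55 SOX3 binding sites, none of which belonged to more than 1 of the 10 genes.

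The peaks came from ChIP-Seq of SOX3 in neural progenitor (NP) cells, which had been derived from the mouse embryonic stem cell line R1 by 4 days in N2B27 medium. Chromatin was precipitated with an antibody to SOX3 (R&D hSOX3) in 3 biological replicates, and an input sample served the authors as the background for peak calling. There was 1 condition, so the comparisons are between genes and between replicates, and all rest on 1 cell line. Peak lists carry no expression values, so neither the level of these genes nor the identity of the cells was measured here.

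Retinoic acid is made from vitamin A in a final, irreversible oxidation by the ALDH1A retinaldehyde dehydrogenases, and CYP26 enzymes hydroxylate it so that it can be cleared. It binds the RAR proteins, which sit on DNA as heterodimers with the RXR proteins, typically at direct repeats of a nuclear receptor half-site, and recruit corepressors without ligand and coactivators with it. In the embryonic nervous system the pathway patterns the hindbrain and spinal cord and promotes neuronal differentiation, while SOX3 and the other SOXB1 proteins are known for maintaining neural progenitors.

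The sequences of 7 sites are shown because they carry the main features found near these genes: the highest-ranked sites in Rarb, Rarg and Rxra, the sites next to internal transcription start sites of Rara and Rarb, the site in the first intron of Aldh1a2, and the repeated sequence downstream of Aldh1a3. Each was read from mm9 on the strand of the gene, 5′ to 3′, within the stretch shared by the replicates, except the site at the internal start of Rarb, where the peak of replicate 3 is shown. Exons of coding transcripts were left out and at most 300 bases were printed. Capitals mark a SOX word (AACAAA or its variant AACAAT, and likewise GACAAA or its variant GACAAT, on either strand), an octamer (ATGCAAAT or ATGCTAAT), the paired SOX/POU word (13 bases, of which 8 are fixed, 3 are A or T and 2 are any base), or a direct repeat of the nuclear receptor half-site AGGTCA or its variants (AGTTCA as well as GGGTCA as well as GGTTCA) spaced by 5 bases. Repeats spaced by 1 or 2 bases were also searched and were found in 0 of the 55 sites, but they are too rare for this count to tell anything (spaced by 1, 0.597% of the sites in every replicate and 0.166% of the others over the genome; spaced by 2, 0.317% and 0.307%).
Rarb intron 1, chr14:17566076-17566375, minus strand: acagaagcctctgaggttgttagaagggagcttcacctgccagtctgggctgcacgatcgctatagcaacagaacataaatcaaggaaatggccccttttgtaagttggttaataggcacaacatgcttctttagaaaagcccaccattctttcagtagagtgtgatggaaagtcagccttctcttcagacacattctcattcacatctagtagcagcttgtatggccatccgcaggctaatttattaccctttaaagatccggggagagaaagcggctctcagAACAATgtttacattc
Rarb internal start, chr14:17407987-17408251, minus strand: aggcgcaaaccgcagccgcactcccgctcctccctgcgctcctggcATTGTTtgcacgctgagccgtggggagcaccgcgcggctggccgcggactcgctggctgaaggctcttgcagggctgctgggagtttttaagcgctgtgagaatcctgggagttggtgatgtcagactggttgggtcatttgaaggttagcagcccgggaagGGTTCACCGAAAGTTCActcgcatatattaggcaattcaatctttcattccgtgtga
Rarg intron 3, chr15:102073648-102073934, minus strand: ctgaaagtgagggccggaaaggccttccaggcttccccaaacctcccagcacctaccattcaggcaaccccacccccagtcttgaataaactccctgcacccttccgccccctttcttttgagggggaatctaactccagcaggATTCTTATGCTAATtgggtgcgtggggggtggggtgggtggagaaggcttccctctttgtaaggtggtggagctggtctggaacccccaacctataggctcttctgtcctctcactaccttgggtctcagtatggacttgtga
Rara intron 3, chr11:98825942-98826098, plus strand: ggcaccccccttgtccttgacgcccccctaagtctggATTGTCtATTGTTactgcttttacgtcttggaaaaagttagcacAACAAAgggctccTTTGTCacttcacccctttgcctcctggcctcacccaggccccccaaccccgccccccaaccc
Rxra upstream, chr2:27505832-27506131, plus strand: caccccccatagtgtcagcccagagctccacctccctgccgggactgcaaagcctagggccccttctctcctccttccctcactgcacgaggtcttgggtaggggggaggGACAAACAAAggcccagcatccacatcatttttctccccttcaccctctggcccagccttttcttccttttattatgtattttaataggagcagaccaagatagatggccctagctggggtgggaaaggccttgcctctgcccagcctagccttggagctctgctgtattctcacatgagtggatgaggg
Aldh1a2 intron 1, chr9:71065129-71065243, plus strand: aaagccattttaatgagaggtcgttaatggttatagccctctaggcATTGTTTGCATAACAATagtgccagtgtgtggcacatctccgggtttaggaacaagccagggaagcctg
Aldh1a3 downstream, chr7:73507270-73507542, minus strand: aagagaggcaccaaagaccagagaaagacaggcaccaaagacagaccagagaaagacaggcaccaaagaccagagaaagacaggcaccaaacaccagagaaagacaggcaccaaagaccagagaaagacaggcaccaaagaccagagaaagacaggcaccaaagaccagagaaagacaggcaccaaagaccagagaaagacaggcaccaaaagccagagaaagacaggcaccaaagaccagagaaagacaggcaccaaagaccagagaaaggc

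The 3 deposited lists held 18816, 8096 and 40543 peaks for replicates 1, 2 and 3, and 32, 13 and 36 of these lay near the 10 genes. A peak's score is 10 times the negative log10 of its MACS p-value against input, so the authors' threshold of 1e-05 is a score of 50, and scores were read by rank or percentile within a list because the depth of the libraries is unknown. Of the 55 sites, 11 (20%) had a peak in every replicate, 4 in 2 replicates and 40 in 1 replicate. Over the genome, 10.5% of 51271 merged sites had a peak in every replicate. The 40 were 19 sites of replicate 1 (34.5% of the 55, against 20.7% of the sites of the genome) and 21 of replicate 3 (38.2%, against 58.7%). None came from replicate 2 alone, as was the case for 0.382% of the sites of the genome. Peaks of replicates 2 and 3 began at the same base in 34.5% of their overlapping pairs over the genome and in 3 of 13 pairs near these genes, against 0.922% and 1.63% for replicate 1 with replicates 2 and 3 over the genome. Whether replicates 2 and 3 share reads cannot be told from peak lists and was not tested, so a peak in every replicate may rest on fewer than 3 independent samples. Sites with peaks in both replicates 1 and 2 numbered 11 and those with peaks in both replicates 1 and 3 numbered 13, in each case near 8 of the 10 genes. Of all coding genes, 29.4% had a site of the first kind and 39.4% one of the second.

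SOX3 sites found in every replicate lay near all 6 receptor genes and both synthesis genes, and near neither degradation gene. The contrast depended on the window and the threshold: within 100 kb Cyp26a1 had 2 such sites, the synthesis genes kept 1 of 2 within 20 kb, by nearest gene, with a reciprocal overlap of 50% or without multi-copy peaks, and at a score of at least 100 only 3 receptor genes had one (15.2% of all genes at that score). Receptor genes lost their shared sites under other settings too: Rxra within 20 kb, Rxrb by nearest gene, and Rara and Rxrg with equal numbers of peaks per list. The contrast also depended on the genes listed, since the third ALDH1A gene, Aldh1a1, had no such site within 50 kb and the third CYP26 gene, Cyp26c1, had 1. These 8 of 10 genes stand beside 28.8% of all protein-coding genes with such a site under the same rule, and 30.0% of the 17214 genes whose window was within the length range of the 10 (104 to 488 kb). Rara and Rarb had at least 2 such sites, as did 8.51% of all genes, and Rarb alone of the 10 had at least 3, as did 3.20% of all genes. The window of Rarb was the longest of the 10 at 488 kb, so that its 3 sites came to 0.615 per 100 kb, and 9.71% of the 680 genes with a window within 1.5 times of that length also had at least 3. Counting single lists, replicate 1 had a peak near 9 of the 10 genes (67.7% of all genes), replicate 2 near 8 (38.3% of all genes) and replicate 3 near 9 (84.6% of all genes). A site of any replicate lay near 9 of the 10 genes, against 90.6% of all genes, a share too close to complete to set any genes apart. The genes were picked by function and their windows hold other genes, so the shares are a description and were not tested.

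**Figure D1:**
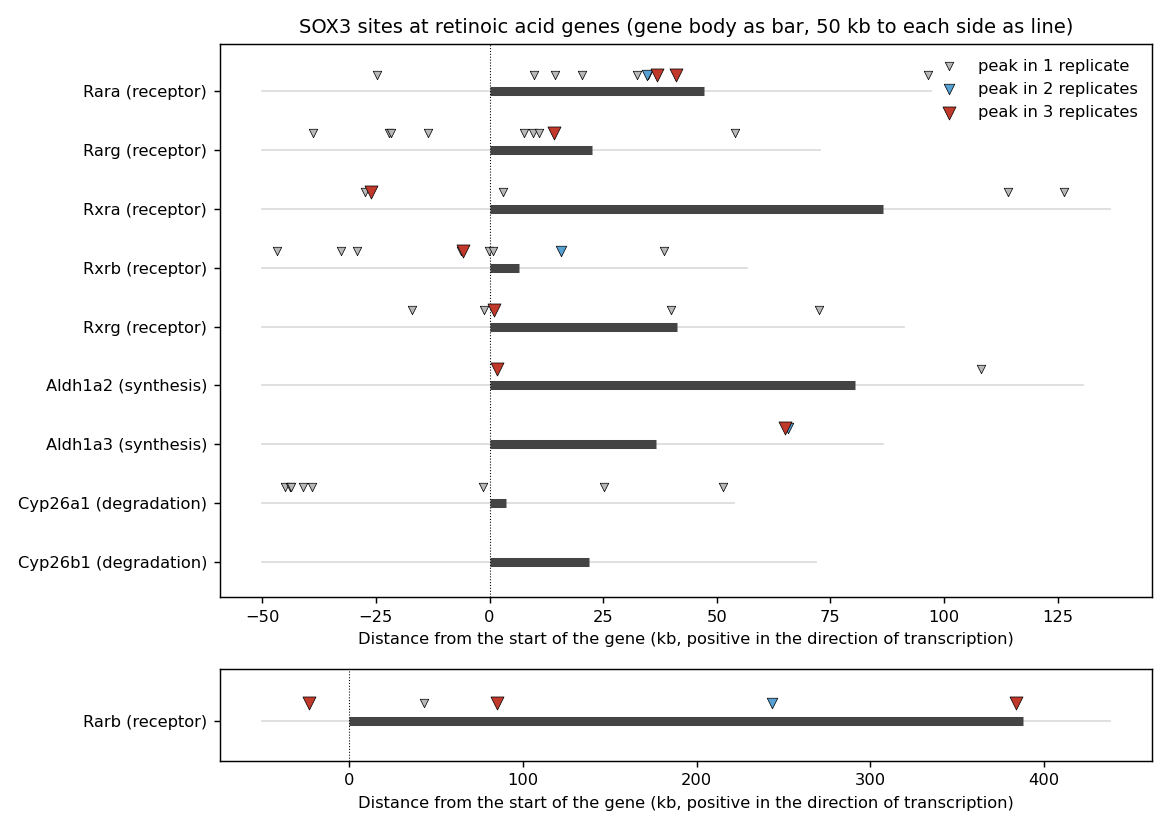
SOX3 sites around each of the 10 genes, with distance from the gene start in kb on the horizontal axis (Rarb on an axis of its own). Bars are gene bodies, lines the 50 kb to either side, and triangles the sites, coloured by the number of replicates with a peak. Rarb and Rara hold 3 and 2 of the sites found in every replicate, and Cyp26b1 has none of any kind.

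The windows of the 10 genes had a median length of 139 kb, against 115 kb for all coding genes. Per 100 kb of window there were 3.17 sites near the 10 genes and 2.77 near all genes, and 0.634 and 0.317 sites found in every replicate. Receptor windows held 0.755 such sites per 100 kb, synthesis windows 0.631 and degradation windows 0. For sites of any kind the values were 3.61, 1.26 and 3.55, and all 8 sites behind the last of these were near Cyp26a1, since Cyp26b1 had none. With 6, 2 and 2 genes, these differences between the classes were not tested.

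**Figure D2:**
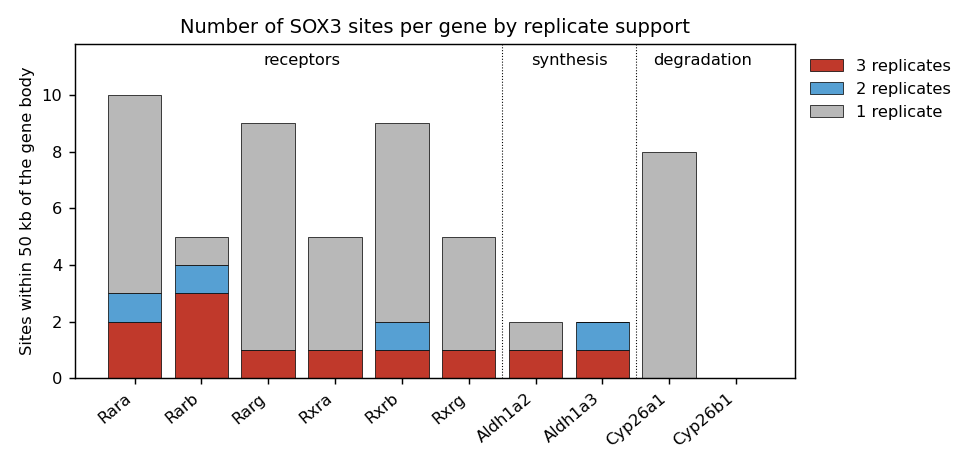
Number of SOX3 sites within 50 kb of each gene body, stacked by the number of replicates with a peak. The receptors have 5 to 10 sites each and at least 1 found in every replicate, while each of the 8 sites of Cyp26a1 has a peak in a single replicate, 6 in replicate 3 and 2 in replicate 1.

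Rarb, the receptor gene whose transcription is itself induced by retinoic acid in many cells, had the most sites found in every replicate. Its gene body of 388 kb on the minus strand of chromosome 14 (chr14:17263356-17651381) is the longest of the 10, and its 3 sites lie upstream, in intron 1 and near the 3′ end. The site in intron 1 (chr14:17565989-17566414, 85.2 kb into the gene) had scores of 327, 197 and 319 in replicates 1, 2 and 3, at percentiles 92.7, 85.5 and 96.6 of their lists. It was high in all replicates, and when the 5358 sites found in every replicate over the genome were ordered by their lowest percentile it was number 1089, the highest place of any site near the 10 genes.

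The other Rarb sites were weaker. The upstream site (chr14:17674125-17674473, 22918 bp before the start of the gene) had scores of 61.1, 56.4 and 132. Its percentiles were 31.5, 18.5 and 88.3 of the lists, which differ in length. Among sites found in every replicate over the genome it was low in all replicates (percentiles 7.07, 8.38 and 28.8). The third site (chr14:17267294-17267698) lies in intron 7, and its nearest coding transcription start is that of Top2b, a DNA topoisomerase gene, at a distance of 11694 bp. Its scores were 96.6, 89.1 and 216, at percentiles 61.3, 55.2 and 94.1 of the lists. Among sites found in every replicate over the genome the percentiles were 21.6, 38 and 57.9.

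Another Rarb site (chr14:17407958-17408327) sat at the internal transcription start site of a shorter transcript, with its middle 156.5 bp upstream of the start at position 17407986. Replicate 1 had a score of 54.7 there and replicate 3 a score of 96.8, and replicate 2 had no peak. The peak of replicate 1 was low in its list (percentile 16.7) and that of replicate 3 in the upper part of its own (79.8). The peak of replicate 3 holds the direct repeat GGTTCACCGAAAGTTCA at 17408027-17408043 on the minus strand, the textbook retinoic acid response element of the Rarb promoter, and the AACAAT word seen in capitals as its reverse complement near the beginning of the printed sequence. The peak of replicate 1 does not reach the repeat. Such a repeat was present in 54 of 70042 windows (0.0771%) of the same width and place at annotated transcript starts of coding genes, in 0.109% of the sites lacking a peak in some replicate over the genome, and in 0.299% of those found in every replicate over the genome. None of the 11 such sites near the 10 genes held one. The letters say nothing of whether a receptor was bound there, and this site was chosen for display after its sequence was seen. The last Rarb site, in intron 1, came from replicate 3 alone (score 76.7).

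Rarg, the receptor gene associated with skin, cartilage and undifferentiated cells, had 1 site in every replicate and 8 in a single replicate. The shared site (chr15:102073613-102073982) lies in intron 3 of the coding transcript with the most exons, 222.5 bp downstream of the start, at position 102074020, of a processed transcript of the gene. Its scores were 285, 163 and 246, at percentiles 91, 80.7 and 95.1, so that it was among the upper part of every list. The sequence holds neither of the SOX words in capitals. It carries the SOX/POU word ATTCTTATGCTAA, which overlaps the octamer ATGCTAAT, and the core SOX word ACAAAG elsewhere. The first part of this SOX/POU match, ATTCTT, where the word allows any base at 2 positions, holds no ACAA on either strand. Of the 8 other sites, 3 lay in intron 3 of Rarg and 5 lay outside it, nearest to the starts of Espl1, Mfsd5 or Zfp740. Their scores ran from 51.4 to 124.

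Rara, the most widely expressed of the RAR genes, had 10 sites, of which 8 were inside the gene. The site in intron 3 (chr11:98825881-98826186) ended at the first base of an internal coding transcript, whose start at position 98826186 lay 152.5 bp from the middle of the site. Its scores were 169, 79.8 and 82, and its percentiles 81.1, 48.1 and 71.8 placed it in the middle or upper part of each list. Among sites found in every replicate over the genome the percentiles were 47.1, 30.6 and 8.01. The shared stretch printed above holds 4 SOX words, AACAAT on the minus strand, AACAAA on the plus strand, and both GACAAT and a GACAAA on the minus strand. The second site found in every replicate (chr11:98830005-98830379, intron 5) had scores of 201, 56.4 and 67.6, at percentiles 85, 18.6 and 56.9 of the lists. Among sites found in every replicate over the genome it was in the middle in replicate 1 (percentile 55.5) and low in replicates 2 and 3 (8.49 and 3.04). A site of replicates 2 and 3 in intron 3 (chr11:98823770-98823958) had scores of 70.6 and 95.3, and a peak of replicate 1 began 54 bp beyond its end without overlapping it. The other 7 Rara sites had scores between 52.3 and 88.2.

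Rxra, which encodes the RXR partner most used in embryos, had a site upstream that was the highest-scoring of the 11 in replicate 1. It lies 26 kb before the gene (chr2:27505768-27506200), and no other coding gene reaches the window of Rxra. The scores were 561, 194 and 304, at ranks 560 of 18816, 1214 of 8096 and 1478 of 40543 in the lists. It stood high in all replicates, and it was number 1119 when the genome's shared sites were ordered by their lowest percentile. The sequence holds GACAAACAAA, where a GACAAA and an AACAAA word overlap. The other 4 sites near Rxra came from single replicates, with scores of 50.1 to 72.8, and 1 of them was mostly multi-copy, with 96.3% of its 50-base stretches found in more than 1 place of the reference.

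Rxrb lies in the gene-dense major histocompatibility region, with 5 other coding genes in its window, and only 1 of its 9 sites was nearest to Rxrb itself. The site found in every replicate (chr17:34162700-34163153) was 5830.5 bp upstream and 776.5 bp from the start of H2-Ke6, a neighbouring gene. Its scores were 235, 77.7 and 140, with percentiles of 88, 46.2 and 89.1 in the lists. Among sites found in every replicate over the genome the percentiles were 62.6, 28.5 and 31.9. A site of replicates 2 and 3 (chr17:34184326-34184527) was 798.5 bp from the start of the collagen gene Col11a2 and consisted of a short repeat. Shifted by 32 bases, 93.5% of its bases matched themselves, and 79.1 to 80.1% of its 50-base stretches were multi-copy. The site that was nearest to an Rxrb start, 135 bp from it, was a peak of replicate 1 with a score of 53.3.

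Rxrg, the RXR gene of muscle and parts of the nervous system, had the shared site closest to its gene start. The site (chr1:169529313-169529642, intron 2) was 962.5 bp downstream of the start and had scores of 85.9, 83.3 and 166. Its percentiles in the lists were 55.7, 50.9 and 91.5. Among sites found in every replicate over the genome it was below the median in each replicate (percentiles 17.8, 33.4 and 42.4). None of the SOX, octamer or SOX/POU words searched was found in it. The other 4 sites had scores of 51.2 to 75.5.

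Aldh1a2, the main retinoic acid-synthesising enzyme gene of the early embryo, had 1 site in every replicate (chr9:71065010-71065410), in intron 1 and 1614 bp from the start of the gene. The scores were 109, 60.6 and 102, and the percentiles of 66.3, 27.4 and 81.7 were below the median of all shared sites over the genome in each replicate. The whole merged site of 401 bp held 5 words of the AACAAA or AACAAT kind, 1 GACAAA and 1 SOX/POU word. The last of these, ATTGTTATGCAAA on the minus strand, appears in the printed sequence as its reverse complement, which ends with the AACAAT word and overlaps the ATTGTT before it. The AACAAA words and the GACAAA lie outside the 115 bp shared by the replicates. With a reciprocal overlap of 50% the site was no longer found in every replicate. The other Aldh1a2 site, in replicate 1, had a score of 50.7 and was 93.8% multi-copy.

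Aldh1a3, a retinaldehyde dehydrogenase gene of the eye and nasal region, had no site inside the gene. Both of its sites lay 65.1 and 65.7 kb downstream of its start, 13 bp apart, inside Lrrk1, a kinase gene, and nearest to the start of Gm10974. The site found in every replicate (chr7:73507075-73507600) had scores of 347, 63.5 and 116, so that it ranked high in replicate 1 (percentile 93.3) and low in replicate 2 (31.4). The neighbouring site (chr7:73506438-73507061) had scores of 323 in replicate 1 and 95.1 in replicate 3. As the printed sequence shows, a unit of 24 bases was repeated throughout: 91.2% of the bases matched those 24 positions on, against a median of 36.2% over all shifts tested. Between 68.3 and 75.4% of the 50-base stretches in the peaks of the shared site occur in more than 1 place of the reference, and it was the only one of the 11 sites that was mostly multi-copy. Without mostly multi-copy peaks Aldh1a3 had no site, and the sites found in every replicate were 10, near 7 genes. Copies were counted only for peaks near the 10 genes, so no share of all genes can be set beside this count. Whether such reads belong to this place was not tested.

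Cyp26a1, the main retinoic acid hydroxylase gene of the early embryo, had 8 sites, each in 1 replicate. There were 6 of replicate 3, with scores of 50.5, 54.6, 78.1, 84, 88.6 and 94.3, and 2 of replicate 1, with scores of 51.9 and 68.7. The sites did not overlap between these replicates, and replicate 2 had no peak in the window. Over the genome 79.8% of merged sites likewise came from 1 replicate. The one nearest the gene (chr19:37770740-37770892) was 1482 bp upstream with a score of 78.1, and 5 of the others lay 39120.5 to 44883 bp upstream inside Exoc6 and were nearest to the start of Cyp26c1. Only 3 of the 8 sites were nearest to Cyp26a1, and 7 of the 8 also lay in the window of Cyp26c1. Cyp26b1, the hydroxylase gene of the hindbrain and limb, had no peak in any replicate within 50 kb (chr6:84521938-84543740 for the gene itself). The lists hold only peaks past the threshold, so weaker binding near either gene was not detectable from them.

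Scores of the 11 shared sites near the 10 genes had medians of 201, 79.8 and 140 in replicates 1, 2 and 3. The 5358 shared sites of the genome had medians of 180, 108 and 189. The median near the 10 genes was thus the lower of the pair in replicates 2 and 3 and the higher in replicate 1. Only Rarb intron 1, Rarg and Rxra exceeded the genome's median in all replicates, and these 3 were also the only sites with a score of at least 100 (p-value of 1e-10 or less) in every list. Single-replicate sites had median scores of 54.5 in replicate 1 and 58.9 in replicate 3, with ranges of 50.7 to 124 and 50.1 to 94.3.

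**Figure D3:**
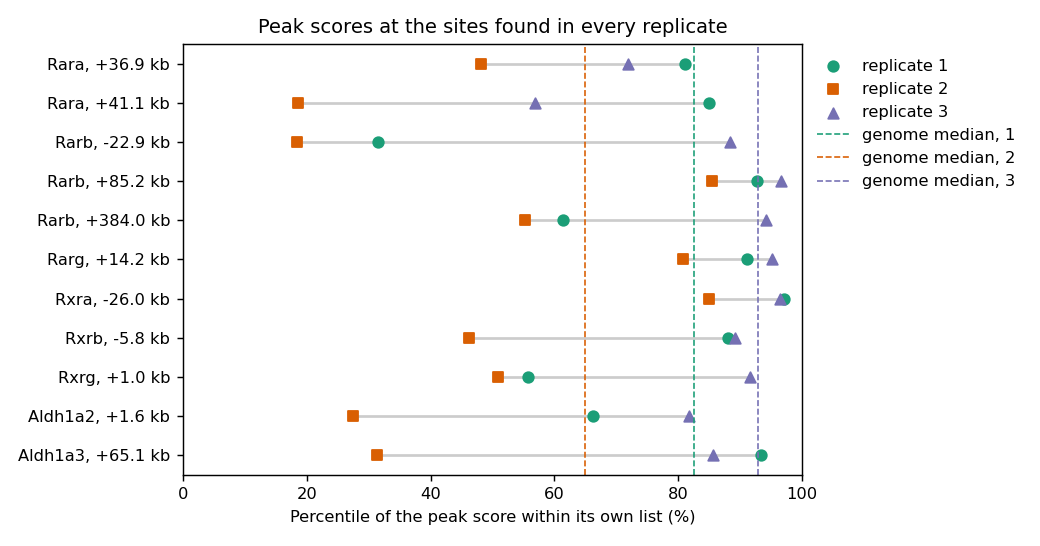
Percentile of the peak score within its own list for each of the 11 sites found in every replicate, named by gene and distance from the gene start. Points are replicates and dashed lines the median percentile of all shared sites of the genome (82.6, 65 and 92.8). At Rarb +85.2 kb, Rarg and Rxra each point lies to the right of its own replicate's line, and at each of the other sites at least 1 point lies to the left of it.

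By position, 5 of the 11 shared sites had their middle within 2000 bp of a transcription start of a coding gene (promoter), 4 were intronic and 2 intergenic. Over the genome the shares of shared sites were 19.2% promoter, 28.4% intronic, 51.1% intergenic and 1.31% exonic. The 11 sites were picked for lying in or near a gene, whereas the genome's shared sites were taken without such a rule. More promoter and fewer intergenic sites can follow from that rule alone, so the shares cannot tell whether these genes differ from others in position. Of the 11, 7 were inside the gene, 3 upstream and 1 downstream. Their distance from the gene start had a median of 25976 bp and ran from 962 to 383885 bp. From the nearest transcript start of the gene the median was 5830 bp, and 4 lay within 2000 bp of any transcript start of the member. Of the 11 sites, 8 were nearest to the member itself, and the exceptions were the intron 7 site of Rarb and the sites of Rxrb and Aldh1a3.

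Of the sites found in every replicate near the 10 genes, most held the core SOX word, as did most shared sites elsewhere. This word (ACAAAA or, as variants, ACAAAG and also ACAATA and also ACAATG) was present in 9 of 11 (81.8%, exact 95% interval 48.2 to 97.7%), against 82.6% of 5356 shared sites of the genome without unknown bases. The sites of Rxrg and Aldh1a3 were those without it. AACAAA or AACAAT was present in 63.6%, against 62.8%, and GACAAA or GACAAT in 36.4% (interval 10.9 to 69.2%), against 48.5%. The octamer was found in 1 site (9.09%, against 11.6%) and the SOX/POU word in 2, Rarg and Aldh1a2 (18.2%, interval 2.28 to 51.8%, against 6.98%), differences that were not tested over 11 sites. These words overlap one another in their letters, both strands were searched, and the intervals cover counting error only. In the 44 sites lacking a peak in some replicate, the core SOX word was in 38.6% (interval 24.4 to 54.5%), against 50.2% of such sites over the genome.

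Other genes of the pathway were counted in the same way. Among 20 of them, 11 (55%) had a site in every replicate, against 28.8% of all genes, and all 20 had a site of any kind, against 90.6% of all genes, with 105 sites in total, of which 19 were shared by all replicates. Cyp26c1, the remaining CYP26 hydroxylase gene, had 1 shared site 47.6 kb upstream (chr19:37712214-37712795), with scores of 678, 351 and 574, higher in every replicate than any site near the 10 genes. Of its 9 sites, 7 are also among those of Cyp26a1. The Cyp26c1 gene lies upstream of Cyp26a1 on chromosome 19, and the same site was 59.8 kb from the start of Cyp26a1, outside the 50 kb window.

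Among the carriers that hold retinoic acid in the cytoplasm, Crabp2 had 5 shared sites and Crabp1 had 2, whereas Fabp5 had none. Both Crabp1 sites were nearest to Wdr61. The strongest near Crabp2 (953, 587 and 1027) was nearest to Nes, the gene of the progenitor filament nestin. For retinol supply, 1 of 4 genes had shared sites: the retinol-binding protein receptor gene Stra6 had 2, and Rbp4, Lrat and Bcmo1 had sites of fewer replicates only. The stronger Stra6 site (385, 230 and 448) was nearest to Ccdc33. For retinal metabolism, the retinol dehydrogenase gene Rdh10 had 2 shared sites. The one in intron 4 had scores of 411, 333 and 764, and the other, upstream, was nearest to 4930444P10Rik. The retinaldehyde reductase gene Dhrs3 had 1, which was nearest to Vps13d. Aldh1a1, the third ALDH1A gene, had 7 sites, all of replicate 3.

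Among cofactors, 3 of 5 genes had shared sites. The corepressor gene Nrip1 had 1 with scores of 63.5, 62.2 and 55.3, and the coactivator genes Ncoa1 and Ncoa3 had 2 and 1, the stronger Ncoa1 site being nearest to Cenpo. Among genes known to be induced by retinoic acid, 2 of 4 did, and Cdx1 and Hoxb1 had 1 each. In groups of 3 to 5 genes such counts cannot be set apart from the 28.8% of all genes. The Hoxb1 site was centred 210.5 bp upstream of its start, with scores of 595, 317 and 535, all at or above percentile 93. Stra8 and Tgm2, also induced genes, had only single-replicate sites.

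**Figure D4:**
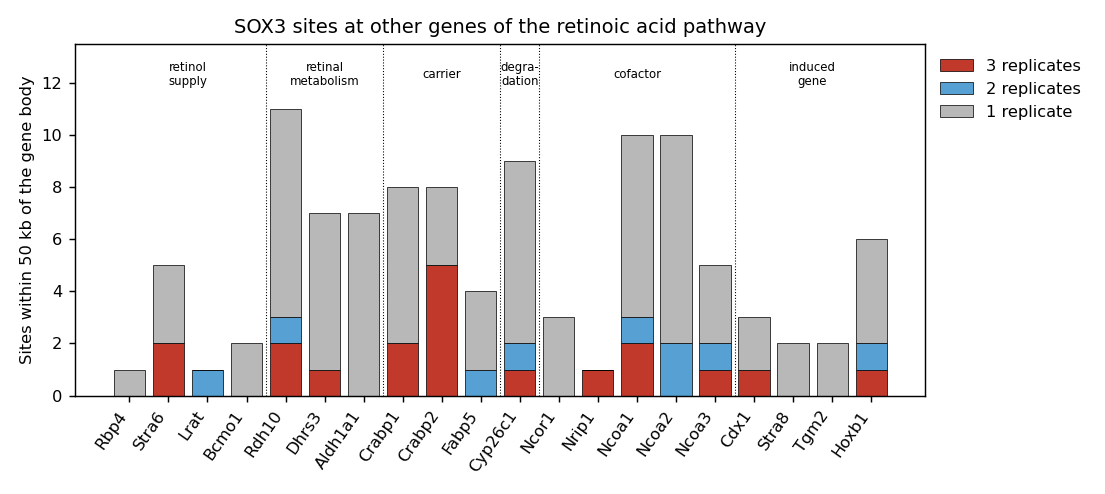
SOX3 sites within 50 kb of the body of 20 other retinoic acid pathway genes, stacked by the number of replicates with a peak and grouped by role. Crabp2 has 5 sites found in every replicate, the most of these genes, and each of the 7 sites of Aldh1a1 comes from 1 replicate.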

How the data were processed

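SOX3 ChIP-Seq was performed on 3 biological replicates of NP cells. Per the labels (the submitters' processing notes), reads were aligned to mm9 with Bowtie 1.0.0, and per the study's methods the authors called peaks in each replicate separately with MACS (bandwidth 300) against input. The MACS version is not given in the sources used here. The deposited score of each peak is 10 times the negative log10 of its MACS p-value (threshold 1e-05), and was not normalised between replicates. Input reads were not analysed here, and without read counts the depth, and so the number of binding sites that could be missed, is unknown. Deep lists can hold more peaks, which is why scores were read within a list.

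From these lists, peaks were merged where they overlapped by at least 1 bp, and assigned to a gene when they overlapped its body plus 50 kb (GENCODE vM1, coding genes outside the mitochondrial genome). Distances run from the middle of the site, intron numbers are those of the coding transcript with the most exons, and a percentile is the share of peaks in the list with a lower score. A peak was mostly multi-copy when over 50% of its 50-base stretches occur elsewhere in the reference on either strand. Words were matched without mismatches on both strands, at the variable positions to any base allowed there, and shares of sites carry exact Clopper-Pearson 95% intervals, which cover counting error only. There was 1 condition, so no test was made.

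All 10 genes were named, sites found in every replicate were given in full and others by counts and ranges, and of the other pathway genes those with such a site were named, as were some without, chosen after their values were seen. The 10 genes, the pathway list and the words were chosen with earlier results of these data known. Some genes of the pathway list are not reported here. The SOX/POU word, the display of the internal Rarb start and the joining of peaks over gaps of 200 bp were added after the data were seen. Alternatives were a score of at least 100, equal numbers of peaks (8096 per list), a reciprocal overlap of 50%, windows of 20 and 100 kb, the nearest gene only, no mostly multi-copy peaks, each replicate left out, and words within 200 bp of the middle. The scripts were tested on simulated data. The software was matplotlib 3.10.9, pysam 0.24.0, numba 0.67.0, scipy 1.17.1 and numpy 2.4.6 under Python 3.11.15.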

Additional observations from a re-analysis of the deposited data

How the results depend on the processing

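The 10 genes had 55 merged sites, 11 found in every replicate, 8 genes with such a site and 9 with any. Keeping only scores of 100 or more left 13 sites, 3 of them shared, near 3 genes (Rarb, Rarg and Rxra, 15.2% of all coding genes). Equal numbers of peaks per list gave 15 sites and 7 shared ones, near 6 genes, without Rara and Rxrg (21.9% of all genes). Windows of 20 kb held 29 sites, with shared ones near 6 genes (without Aldh1a3 and Rxra, 18.5% of all genes), and windows of 100 kb held 92, with shared ones near 9 genes (42.2% of all genes). Sites nearest to the genes themselves numbered 31, with shared ones near 6 genes (without Aldh1a3 and Rxrb, 13.8% of all genes). Leaving out each replicate in turn gave 34 to 55 sites, with the fewest without replicate 3 and 36 without replicate 1, and 11 to 13 shared ones near 8 genes each time (29.4 to 39.4% of all genes). A reciprocal overlap of 50% removed the shared site of Aldh1a2, and joining peaks across gaps of 200 bp, tried after the data were seen, gave 12 shared sites. The degradation genes had 0 shared sites under each of these settings except windows of 100 kb, with 2, both of Cyp26a1. The median distance of the shared sites fell from 25976 to 5830 bp when measured from the nearest transcript start of the gene. The lists are limited by unknown depth and by the threshold, and 40 of the 55 sites rest on 1 replicate. No paired analysis was possible because there was 1 condition and no test.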

Other observations

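Beyond the 50 kb window, 5 further sites found in every replicate lay within 100 kb of the body of a member. Near the degradation genes, Cyp26a1 had one 82.5 kb upstream, nearest to Exoc6, with scores of 69.5, 68.2 and 123, besides the site near Cyp26c1 already described at 59.8 kb. Cyp26b1, which had no peak within 50 kb, had a site of replicates 2 and 3 at 59.6 kb upstream, with scores of 57.3 and 93.1. Among the receptors, Rarb had a further shared site 83.1 kb upstream, nearest to Rarb itself, with scores of 115, 135 and 241. Rarg had one 98.7 kb upstream, nearest to Aaas, with scores of 165, 74.1 and 90.8. Rxrg had one 100 kb upstream, nearest to Lrrc52, with scores of 157, 123 and 335. These distances run from the start of the gene to the middle of the site.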
